A study of Sus scrofa with 16 samples.

Results

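Autosomal deserts, stretches of chromosomes 1 to 18 that held no base of any methylation peak in pig heart, were described here. They were chosen by the deposited peaks themselves. A desert was a gap of at least 50000 bp between the first and the last peak of a chromosome when the 4 peak lists were joined. Of the 223927 autosomal gaps between peaks, 7645 met this rule, or 3.41%. Over all chromosomes and scaffolds together there were 240416 gaps. Since the peaks defined the deserts, their number, length and coverage are descriptions without a test.

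The lists came from MeDIP-seq of the hearts of 16 male pigs, castrated and aged 6 months. Tibetan pigs were sampled in the highland (TH) and in the lowland (TL), and so were Yorkshire pigs (YH and YL), with 4 animals in each group. Each animal spent its whole life at the elevation of its group. The YH and TL herds were recent arrivals at theirs, with a single generation bred there. Each group has 1 list, in which peaks carry no animal name. At most 4 peaks of a list covered any autosomal base, so an overlap of peaks within a list was read as peaks of different animals. The autosomal peaks numbered 258861 in TH, 240851 in TL, 263514 in YH and 305654 in YL, and their tags (reads under a peak) summed to 9688700, 8048363, 10400873 and 12752744 in the same order. These tags are not the depth of the libraries, which the lists do not give.

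In MeDIP-seq, DNA fragments are pulled down by an antibody against 5-methylcytosine. Most of this base in mammalian DNA is found where a cytosine is followed by a guanine (a CpG site). The yield of a fragment depends on both how many CpG sites it has and how many of them are methylated. A stretch without a peak can therefore be poor in CpG sites, unmethylated, or out of reach of short reads because it is repeated or unknown in the assembly. The peak lists do not separate these cases, and no sequence or gene annotation of Sscrofa10.2, the build of all positions below, was used. The base composition and the genes of the deserts were therefore not tested.

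The deserts summed to 713 Mb, which was 29.1% of the 2449 Mb between the first and last peaks of the 18 autosomes, at 3.12 deserts per Mb. The sum depended on the peaks used and was 1025 Mb with peaks of at least 20 tags and 1392 Mb with peaks of at least 10-fold enrichment. Their median length was 71397 bp, with quartiles at 57486 and 101643 bp, whereas the median of all autosomal gaps was 4753 bp. They made up 33.3% of all autosomal bases without a peak. Short deserts were the most frequent. There were 4208 of under 75000 bp (55.0%), 1450 from 75000 to under 100000 bp, 1559 from 100000 to under 200000 bp, 287 from 200000 to under 300000 bp and 115 from 300000 to under 500000 bp. The 26 deserts of at least 500000 bp lay on 12 chromosomes and held 2.41% of the desert bases. The 2197 longest deserts, each of at least 95268 bp, held 50% of the bases.

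**Figure D1:**
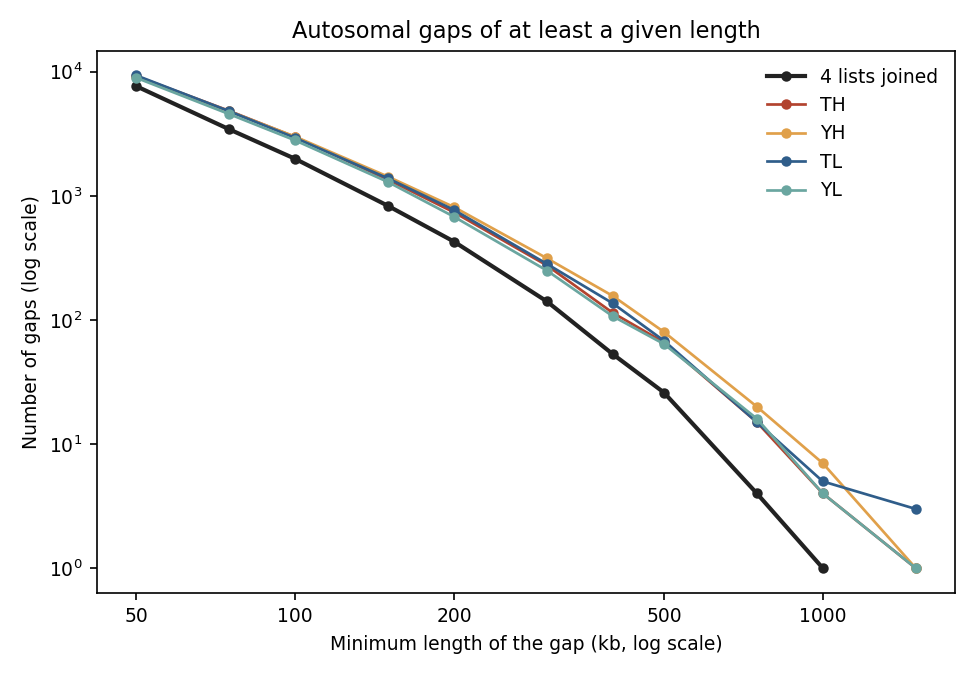
Number of autosomal gaps (log scale) of at least the length on the horizontal axis (kb, log scale), for the 4 lists joined and for each list alone. The joined lists had 7645 gaps of at least 50 kb and 1987 of at least 100 kb, fewer at each length than any single list, and lengths without a gap are not drawn. The TH line is partly hidden behind the others.

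Lengths ran on without a break across the limit of 50000 bp. The shortest desert had 50000 bp (chromosome 3, 36710521 to 36760520), followed by deserts of 50004 bp on chromosome 1 and 50008 bp on chromosome 12. Just outside the rule lay gaps of 49994 bp on chromosome 6, 49993 bp on chromosome 14 and 49991 bp on chromosome 2. The regions that bounded these gaps held 1 to 20 peaks inside the limit and 1 to 13 peaks outside it.

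The longest desert, of 1004988 bp, was on chromosome 13 from 170986399 to 171991386. It was bounded by a single TH peak on the left and a single YH peak on the right, so the lists without these peaks had an even longer gap there. The gap around it was 1314709 bp in TH, 1956878 bp in TL, 1009461 bp in YH and 1318993 bp in YL. The second, of 979217 bp on chromosome 10 (77734848 to 78714064), lay near the end of the chromosome, with its middle at 98.9% of the span. All 4 lists gave it nearly the same bounds, with gaps from 979217 bp in YH to 982140 bp in TL. Its right border held 11 peaks of all 4 lists.

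Chromosome 2 had 3 of the 10 longest deserts. The desert from 63758544 to 64605854 (847311 bp) was parted from another of 536596 bp by 497 bp under 2 TH peaks, and the gap around it was 847315 bp in TH but 1384494 bp in YL, 1511744 bp in YH and 1511781 bp in TL. The desert from 56713951 to 57550128 (836178 bp) ended at a single YL peak, beyond which no list had a peak for another 320964 bp. The desert from 14099317 to 14786987 measured 687671 bp, and the gaps of the lists there ran from 687887 bp in TH to 821201 bp in YH.

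The other 5 of the 10 longest were on 5 chromosomes. On chromosome 1 (237146441 to 237894550), the desert had 748110 bp and the gaps of the lists reached 827776 bp in TL. On chromosome 12 (29649332 to 30387907) it had 738576 bp, and YL had a gap of just this length, TH one of 738637 bp and TL one of 738758 bp, while YH had a gap of 1027097 bp. On chromosome 7 (85225695 to 85923511) it had 697817 bp and ended at a single YH peak, so that YH had a gap of 698219 bp and the other lists gaps of 898829 to 908508 bp. On chromosome 15 (104631194 to 105304229) it had 673036 bp, with gaps of 673509 bp in TH, 673764 bp in TL, 691395 bp in YH and 691527 bp in YL. On chromosome 4 (50332083 to 50993800) it had 661718 bp between single peaks of YL and YH, and the gaps of the lists were 805495 bp (YH) to 998823 bp (TL). Which list had the shortest gap thus differed from desert to desert. It was TH, YH or YL in these 10, while TL had the shortest gap at the longest deserts of chromosomes 14 (638385 bp) and 16 (421699 bp).

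On the 10 chromosomes without any of these, the longest desert ranged from 342289 bp on chromosome 3 (6710383 to 7052671) to 634886 bp on chromosome 14 (112249615 to 112884500). In the chromosome 3 desert the 4 lists were close to each other, with gaps from 342289 bp in YL to 344105 bp in TL, between borders of 9 and 16 peaks of all 4 lists. The longest desert of chromosome 16 (1759538 to 2181236, 421699 bp) lay between 2 single TL peaks, and the gap around it was 421699 bp in TL, 494026 bp in YL, 539208 bp in TH and 812023 bp in YH.

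The chromosomes differed in the share of their span that lay in deserts. The share was highest on chromosomes 15 (37.4%, 578 deserts) and 1 (37.1%, 1115 deserts). It was lowest on chromosomes 18 (20.4%, 151 deserts), 10 (21.9%, 200 deserts) and 12 (22.2%, 172 deserts). The number per Mb varied less, from 2.47 on chromosome 18 to 3.67 on chromosome 15, and the median length ran from 60147 bp on chromosome 12 to 78222 bp on chromosome 1. The 3 chromosomes with the lowest shares were also the densest in peaks outside the deserts. Over the 4 lists there were 724 peaks per Mb outside the deserts on chromosome 10, 722 on chromosome 12 and 700 on chromosome 18, against 616 over all autosomes, 544 on chromosome 15 and 561 on chromosome 1. Other chromosomes did not follow this order. Chromosome 11 had the third highest share (32.3%) but 677 peaks per Mb outside the deserts, chromosome 13 had the lowest density (513) at a share of 31.1%, and chromosome 14 had 597 at a share of 24.9%.

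Pig chromosomes 13 to 18 are acrocentric, that is, their centromere is at one end. The other autosomes have 2 arms. Chromosomes 13 to 18 had 29.7% of their span in deserts and chromosomes 1 to 12 had 28.9%, and the deserts had nearly the same median length, 71637 and 71272 bp. The place of the deserts along the chromosome was not the same, however. The span of each chromosome was divided into 10 equal parts (deciles) in the direction of the coordinates. On chromosomes 13 to 18, deserts made up 36.1% of the first decile and 19.4% of the last. On chromosomes 1 to 12, they made up 22.2% of the first decile, 25.5% of the last and 34.9% of decile 7, where the share was highest.

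Single chromosomes departed from this average. The first decile had a larger desert share than the last on 5 of the 6 acrocentric chromosomes, with 52.1% against 26.4% on chromosome 15 and 47.9% against 11.1% on chromosome 17, but 10.5% against 11.7% on chromosome 18. Among chromosomes 1 to 12, it was larger on 4 of 12. The mean share over deciles 4 to 7 was above that of both the first and the last decile on 9 of chromosomes 1 to 12 and on 2 of the 6 acrocentric ones. The most extreme decile was decile 5 of chromosome 11, of which 82.8% lay in deserts, against 13.1% of the first decile of that chromosome. Decile 2 of chromosome 16 followed with 57.5%, and decile 5 of chromosome 12 with 54.1%.

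**Figure D2:**
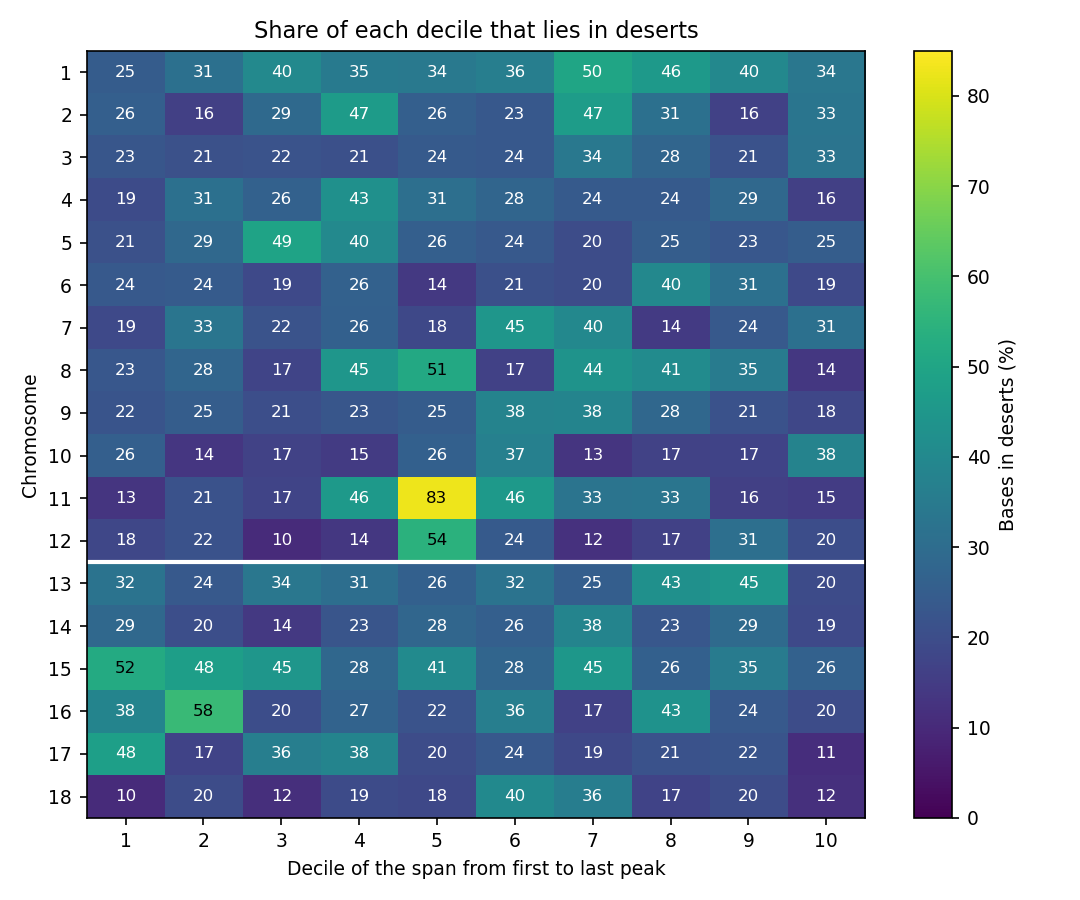
Percentage of bases in deserts for each decile of the span between the first and last peak (horizontal axis) of chromosomes 1 to 18 (vertical axis), with the white line above chromosome 13. Decile 5 of chromosome 11 stands out at 82.8%, and the first deciles of chromosomes 15 and 17 hold 52.1% and 47.9%.

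Counted by their middle, 1365 deserts lay in the outer 10% on either side of the autosomes, or 17.9% (95% exact binomial confidence interval 17.0–18.7%, counting error only), where these ends make up 20% of the span. Of the 39406 autosomal gaps from 10000 to under 50000 bp, 16.8% lay there (16.4–17.2%). Both shares were below the share of the length, and their intervals overlapped. With ends of 5% on either side the intervals did not overlap, with 9.23% of the deserts (8.59–9.91%) and 7.45% of the shorter gaps (7.19–7.71%), where the ends make up 10% of the span. The intervals treat each gap as independent, although gaps share chromosomes, so their overlap is not a test. Across chromosomes the share ran from 13.1% on chromosome 11 to 24.1% on chromosome 17. On chromosome 17 it was uneven, with 35 deserts in the first decile and 12 in the last.

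Deserts were 3.41% of all autosomal gaps, and most of them, 6076 of 7645, had no desert as the next gap on either side. The other 1569 (20.5%) stood in a run of 2 or more deserts that were parted only by a single region of peaks, an island. There were 680 such runs, with 889 islands. The widest run, singled out after its values were seen, was on chromosome 1 from 294793541 to 297131864. Over these 2.34 Mb it held 6 deserts and 5 islands with 6 peaks in all, of which 3 were of TH and 1 each of YH, TL and YL. A second run of 6 deserts on chromosome 2 (62861832 to 64727386, 1.87 Mb) held 10 TH, 4 YH, 2 TL and 4 YL peaks. The run with the most deserts had 8 of them within 751032 bp of chromosome 1 (193180658 to 193931689) and held 11 TH, 7 YH, 12 TL and 8 YL peaks.

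Islands were found in fewer lists than other peak regions. They are defined by the same peaks, and a single peak in a long gap is enough to form an island, so this is a description. Of the 889 islands, 402 (45.2%) had peaks of a single list and 364 (40.9%) consisted of a single peak, whereas 167 (18.8%) had peaks of all 4 lists. Of all 223945 merged autosomal peak regions, 34.8% were of a single list, 30.1% were a single peak and 28.6% were in all 4 lists. The regions at an edge of a desert, islands included, were much like the whole, with 35.7% in 1 list, 31.0% single peaks and 29.2% in 4 lists. The single peaks that formed an island came from TH in 104 cases, from YH in 68, from TL in 95 and from YL in 97. Over all regions of a single peak the lists had the same lowest member, with 18452 from TH, 13468 from YH, 16385 from TL and 19022 from YL.

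A minority of islands had peaks in every list at the highest depth. In 20 of the 889 islands (2.25%), 16 peaks lay over the same base, that is, 4 of each list, as in 1.77% of all regions. One of them, on chromosome 12 from 30675878 to 30678255, held 16 peaks of 33 to 122 tags between deserts of 287048 and 131396 bp. Another, on chromosome 8 from 127364821 to 127366846, held 16 peaks of 18 to 65 tags between deserts of 217345 and 173389 bp. The opposite case was the island beside the longest desert (chromosome 13, 171991387 to 171992187), where 1 YH peak of 17 tags and 8.9-fold enrichment stood between deserts of 1004988 and 308865 bp. These islands were chosen after their values were seen.

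Peaks beside deserts had fewer tags and were shorter than other peaks, but had higher fold enrichment over the background of the peak caller. In TH, the median peak of an island had 16 tags, 10.9-fold enrichment and 742 bp, that at the edge of 1 desert 20 tags, 9.81-fold and 879 bp, and that next to no desert 27 tags, 8.17-fold and 1002 bp. The medians had the same order in the other lists. Island peaks had a median of 18 tags and 9.75-fold in YH, 16 tags and 10.21-fold in TL, and 18 tags and 9.98-fold in YL. Peaks next to no desert had 29 tags and 7.18-fold in YH, 25 tags and 7.74-fold in TL, and 30 tags and 7.41-fold in YL. Islands held 812 peaks of TH, 806 of YH, 776 of TL and 974 of YL, from 0.306% to 0.322% of a list, so no list stood apart in its share of island peaks.

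**Figure D3:**
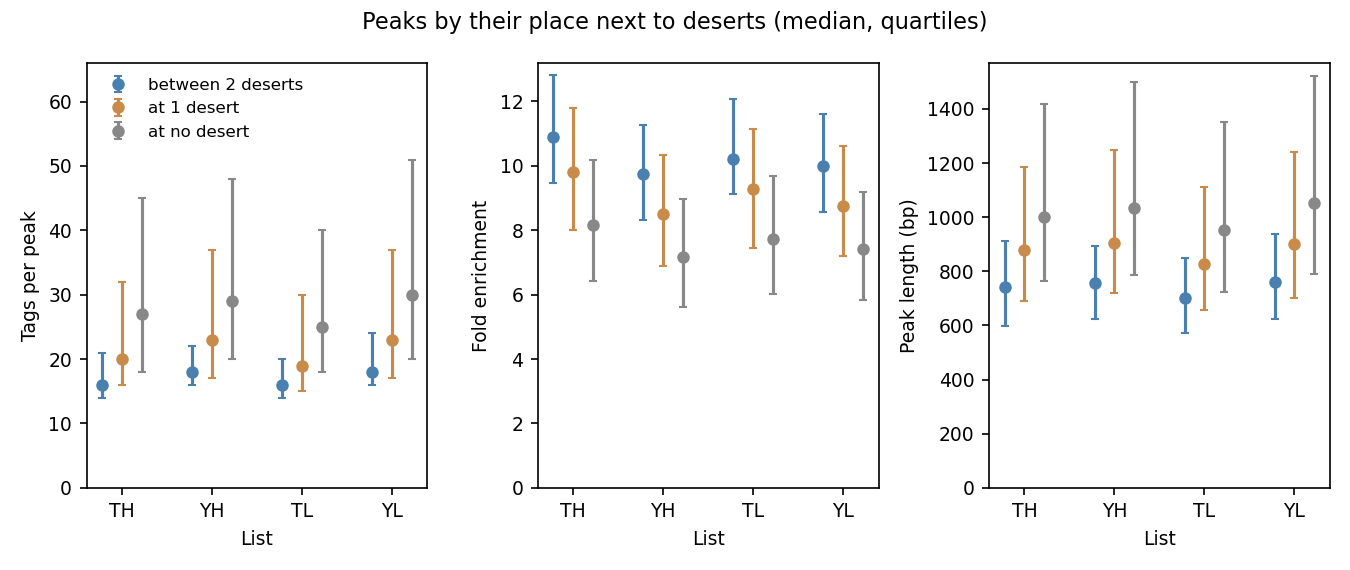
Tags per peak, fold enrichment and peak length (bp) by list, for peaks of islands between 2 deserts, peaks of regions at 1 desert and peaks of regions at no desert. Points are medians and bars run from the lower to the upper quartile of the peaks, and in each list island peaks had the fewest tags, the highest fold enrichment and the shortest length.

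Peak coverage was below its autosomal mean from 5 to 100 kb beyond the edge of a desert. The first 5 kb outside the edge hold by definition the peak that ends the desert, and 16.6% of these bases were under a TH peak. From 5 to 10 kb the coverage was 6.20% in TH, 5.48% in TL, 6.00% in YH and 7.08% in YL. From 95 to 100 kb it was nearly the same, at 6.15% in TH, 5.35% in TL, 5.96% in YH and 6.88% in YL, against 7.22%, 6.29%, 7.02% and 8.21% over the whole autosomal span. With other deserts left out, the coverage was higher at the larger distance. It was then 7.24% in TH, 6.40% in TL, 7.01% in YH and 8.27% in YL from 5 to 10 kb, and 9.16% in TH, 7.98% in TL, 8.88% in YH and 10.3% in YL from 95 to 100 kb. Both sets of values were under those of all autosomal bases outside deserts, which were 10.18% in TH, 8.87% in TL, 9.91% in YH and 11.6% in YL. Other deserts took up 14.4% of the bases from 5 to 10 kb and 32.9% of those from 95 to 100 kb.

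**Figure D4:**
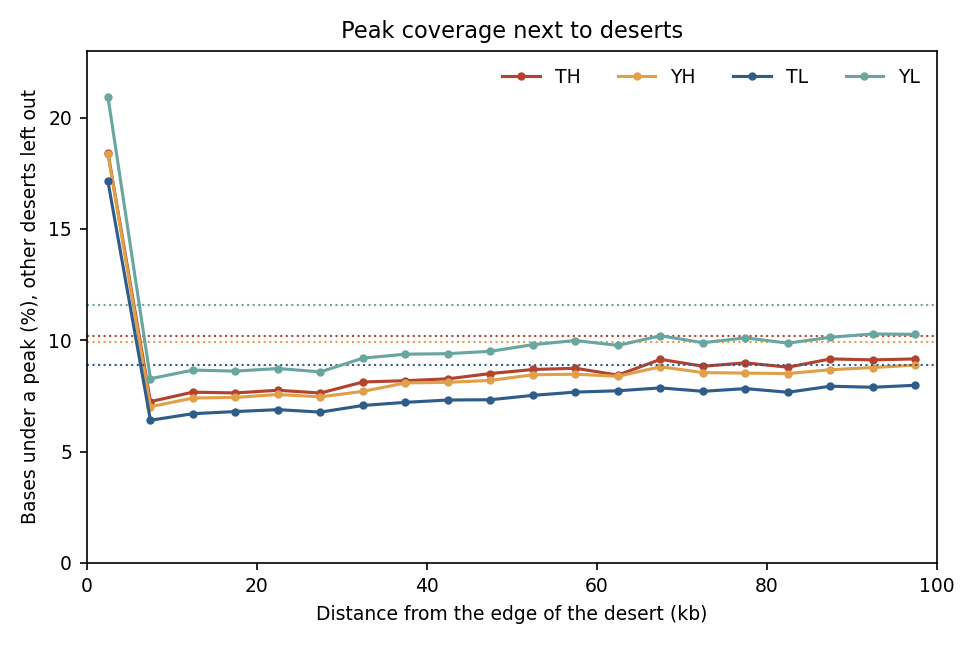
Percentage of bases under at least 1 peak of each list, in steps of 5 kb from the edge of a desert outwards, with bases of other deserts left out. Dotted lines give the value of each list over all autosomal bases outside deserts. In each list the coverage is lowest from 5 to 10 kb and stays under its dotted line as far as 100 kb.

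Each list alone had more gaps of at least 50000 bp than the joined lists. There were 9207 in TH (6.66% of its autosomal gaps), 9337 in TL (7.30%), 9127 in YH (7.00%) and 8933 in YL (6.07%). They took up 39.1% of the span in TH, 39.7% in TL, 39.8% in YH and 37.4% in YL. The longest was 1537940 bp in TH, 1990644 bp in TL, 1511744 bp in YH and 1551195 bp in YL. Each desert lay inside such a gap in every list, apart from 1 desert each in YH, TL and YL that was beyond the outermost peak of the list on its chromosome.

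The gaps of a list fell into those that stayed a single gap when the other lists were added and those that peaks of other lists split. Single gaps numbered 2708 in TH, 2700 in TL, 2536 in YH and 3239 in YL. Most of these were deserts whose edges other lists had moved inwards, and 497 in TH, 384 in TL, 356 in YH and 767 in YL had the very bounds of the desert. The split gaps are the further gaps that other lists filled. They numbered 6499 in TH (70.6% of its gaps, 714 Mb), 6637 in TL (71.1%, 734 Mb), 6591 in YH (72.2%, 755 Mb) and 5694 in YL (63.7%, 632 Mb).

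In most split gaps, at least 1 desert was left between the peaks of the other lists, in 4369 in TH, 4322 in TL, 4386 in YH and 3896 in YL. In the rest, no piece of 50000 bp was left. These gaps, which disappeared from the joined lists, numbered 2130 in TH (143 Mb), 2315 in TL (154 Mb), 2205 in YH (149 Mb) and 1798 in YL (119 Mb). Their median length was 60747 to 61460 bp, against 100577 to 102986 bp for split gaps with a desert. The longest of them reached 239251 bp in TH, on chromosome 15 from 16057046 to 16296296, where 6 YH, 6 TL and 10 YL peaks in 14 regions left no piece longer than 37964 bp. In YH it was 211913 bp long, on chromosome 16 from 9772376 to 9984288, with 7 TH, 7 TL and 3 YL peaks inside. In TL and YL, the longest lay at one place of chromosome 8, from 37359386 to 37597785 in TL (238400 bp, with 3 TH, 5 YH and 4 YL peaks) and from 37390459 to 37597771 in YL (207313 bp, with 2 TH and 3 YH peaks). These examples were chosen after their values were seen.

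The lists had the order TL, YH, TH and YL by number of split gaps, and TL had the fewest and YL the most peaks. With the 240851 autosomal peaks of the highest tags in each list, the numbers of split gaps became 6576 in TH, 5509 in TL, 6854 in YH and 7586 in YL, so that TL had the fewest and YL the most. Only 1 of the 6 pairs of lists kept its order. This choice leaves TL whole and takes the peaks of the fewest tags from the other lists. With peaks of at least 10-fold enrichment, YL again had the most (11309), followed by YH (11254), TL (10863) and TH (9603). The order of the groups by split gaps thus changed with the peaks used, for which the cause was not tested, and with 1 list per group there was no spread between animals to set a difference against.

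**Figure D5:**
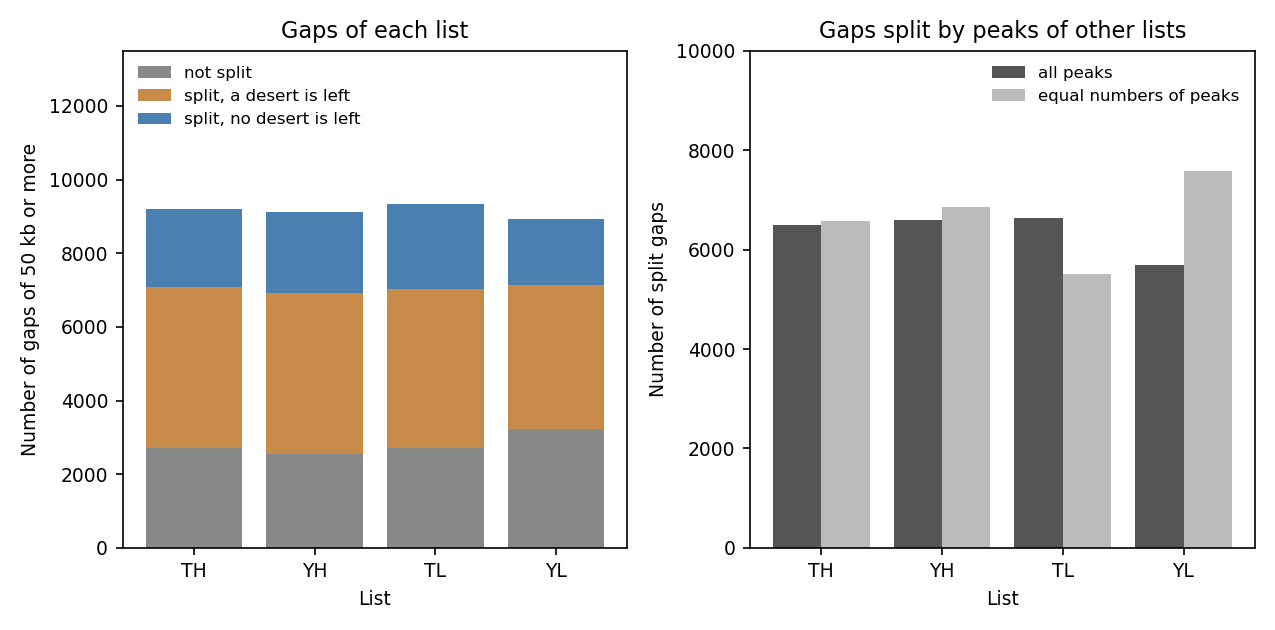
Left, the number of gaps of at least 50 kb in each list, as gaps that peaks of other lists did not split, split gaps in which a desert was left and split gaps without one. Right, the number of split gaps with all peaks and with equal numbers of peaks per list (the 240851 autosomal peaks of the highest tags), where YL goes from the lowest number (5694) to the highest (7586).

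The peaks that split a gap were few, and had fewer tags, a shorter length and a higher fold enrichment than the median peak of their list. The median split gap held 4 peaks of other lists in TH, YH and TL and 3 in YL, in 2 regions, and the peaks covered a median of 1.73% of the gap in both highland lists, 1.88% in TL and 1.47% in YL. A single peak was all there was in 20.1% of the split gaps of TH, 18.1% of TL, 19.5% of YH and 26.0% of YL. Peaks of all 3 other lists were present in 41.0% of those of TH, 45.1% of TL, 41.4% of YH and 29.8% of YL. The YL peaks in split gaps of TH had a median of 18 tags and 749 bp, against 30 tags and 1040 bp for all autosomal YL peaks. The TL peaks there had a median of 15 tags, against 25 for all TL peaks. Their fold enrichment was higher than in the whole list, at 8.74 against 7.49 for YL and 9.32 against 7.88 for TL. The other combinations of lists gave medians of 15 to 18 tags.

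The 3 longest split gaps of each list lay mostly at the same few places. Around the widest run on chromosome 1, TL had a gap of 1990644 bp (294779901 to 296770544) with 3 TH, 1 YH and 2 YL peaks inside. YL had one of 1551195 bp (295580670 to 297131864) with 1 peak each of TH, YH and TL, TH had one of 1537940 bp (294989399 to 296527338) with 1 YH and 1 YL peak, and YH had one of 1316478 bp (294779708 to 296096185) with 2 TH and 2 YL peaks. Around the longest desert on chromosome 13, TL had a gap of 1956878 bp (170775289 to 172732166) with 9 TH, 6 YH and 9 YL peaks in 12 regions. At that place the gap of TH (1314709 bp) was split by 1 YH peak and that of YL (1318993 bp) by 1 TH and 1 YH peak. On chromosome 2, the gaps of YH (1511744 bp) and TL (1511781 bp) from about the same start were split by 2 TH peaks and 1 YL peak, and that of YL (1384494 bp) by 2 TH peaks. The last examples were a gap of 1158390 bp in TH on chromosome 2 (56713492 to 57871881) with 1 YL peak inside, and one of 1208925 bp in YH on chromosome 1 (235164088 to 236373012) with 5 TH, 5 TL and 3 YL peaks.

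Whether gaps differed by breed or elevation was described by joining the lists of 2 groups. The Tibetan lists together (TH and TL) had 8332 gaps of at least 50000 bp, of which Yorkshire peaks split 3628 (43.5%). The Yorkshire lists together had 8305, of which Tibetan peaks split 3650 (43.9%). Lowland peaks split 3735 of the 8323 gaps of the highland lists (44.9%), and highland peaks split 3011 of the 8169 gaps of the lowland lists (36.9%). The pairings that cross both factors gave 3170 of 8256 (38.4%, TH and YL) and 3776 of 8294 (45.5%, YH and TL). The number of peaks in the joined lists was lowest in the Tibetan pair (499712) and highest in the Yorkshire pair (569168). The numbers of split gaps for breed and elevation lay within the range of the crossed pairings except that of the lowland pair. However, the crossed pairings joined the groups at home (TH and YL) and the recent arrivals (YH and TL), so they are not a neutral reference. The groups are 1 list each, so a difference between animals and one between groups cannot be told apart here. Of the split gaps alone, both other lists had peaks in 42.4% for the Tibetan pair, 37.1% for the Yorkshire pair, 35.4% for the highland pair and 29.1% for the lowland pair. The crossed pairings gave 29.9% (TH and YL) and 38.6% (YH and TL) of their split gaps.

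The longest of these gaps held only 1 to 3 peaks of the other groups. It was the gap of 1537940 bp on chromosome 1 named above for the Tibetan pair, with 1 YH and 1 YL peak. For the Yorkshire pair it was 1384492 bp on chromosome 2 (63221451 to 64605942) with 2 TH peaks, and for the lowland pair it was the same place with 1384404 bp. The crossed pairs had 1314654 bp on chromosome 13 (170986399 to 172301052, 1 YH peak) for TH and YL, and 1511656 bp on chromosome 2 (63094199 to 64605854, 2 TH peaks and 1 YL peak) for YH and TL. For the highland pair it was 1158207 bp on chromosome 2 (56713675 to 57871881) with 1 YL peak. The gap with the most peaks of the other groups, singled out after its values were seen, was that of the Tibetan pair on chromosome 15 from 21525297 to 21676059. Over these 150763 bp, TH and TL by definition had 0 peaks, while YH had 8 and YL had 11 in 8 regions. These regions covered 4.27% of the gap, and 1 desert lay inside it. Between elevations, TL and YL likewise had 0 peaks over 138788 bp of chromosome 11 (70931016 to 71069803), where TH had 7 and YH had 9. The regions of these peaks covered 4.01% of that gap, again with 1 desert inside. For the Yorkshire pair it was a gap of 94895 bp on chromosome 8 (36152020 to 36246914) with 8 TH and 5 TL peaks. Their regions covered 4.12% of it, with 1 desert inside. The highland pair had a gap of 51254 bp on chromosome 14 (48898740 to 48949993) with 5 TL and 7 YL peaks, whose regions covered 8.20% of it. The highest numbers in gaps of the crossed pairs were similar, with 18 peaks for TH and YL on chromosome 10 (22951696 to 23208414) and 17 for YH and TL on chromosome 3 (19442771 to 19590780). These gaps were the extremes of all split gaps and were not tested.

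Counted in bases, 744 Mb (30.4% of the span) lay in a gap of at least 50000 bp in all 4 lists, 134 Mb (5.46%) in 3 lists, 127 Mb (5.19%) in 2 lists and 191 Mb (7.79%) in a single list. The remaining 1253 Mb (51.2%) lay in such a gap in no list. Of the bases in a gap of exactly 2 lists, 28.2 Mb were shared by TH and TL, 22.01 Mb by YH and YL, 21.8 Mb by TH and YH and 13.9 Mb by TL and YL, while the crossed pairs had 25.4 Mb (YH and TL) and 15.8 Mb (TH and YL). The bases in a gap of a single list were 62.2 Mb in TL, 52.8 Mb in YH, 48.8 Mb in TH and 27.0 Mb in YL. The list with the fewest peaks thus had the most such bases and the list with the most peaks the fewest. A gap of 3 lists was filled by peaks of the fourth alone in 1750 of 7909 cases for YL (22.1%), 1649 of 7923 for TL (20.8%), 1587 of 7881 for TH (20.1%) and 1180 of 7832 for YH (15.1%). In 70.3% of those filled by YL, 71.0% by TL, 71.0% by TH and 78.6% by YH, a single peak did so.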

How the data were processed

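DNA from the hearts of 16 pigs was assayed by MeDIP-seq, with samples grouped by the letters of the sample titles. Trimming (FASTX), mapping (Bowtie, on Sscrofa10.2) and peak calling (MACS) were done by the authors, who deposited 1 list of peaks per group. The deposited tags are counts per peak without normalization, and the deposited fold enrichment is a ratio over the background of the peak caller. Medians of both were taken within a list. The minima of tags and fold enrichment in the alternatives were the same for all lists, although the medians of the lists differ. The end column of TH held a dash in 100907 rows, for which the joint field of start and end was read. The members and lists were chosen with earlier results of these data known.

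Peaks of each list, or of joined lists, were merged where they overlapped or adjoined. A gap is the stretch between neighbouring merged regions, so unpeaked chromosome ends are left out. A gap of a list was called split if other lists had a merged region wholly inside it, a definition made after it was seen that their peaks overlap the edges of nearly every gap. No test between groups was made, because each group has 1 list. The named deserts are the 10 longest, the longest of each other chromosome (by range) and the 3 on either side of the limit. The named split gaps are the 3 longest of each list and the longest of each pair of groups. The alternatives were other minima for gaps, tags and fold enrichment, equal numbers of peaks, bases under at least 2 peaks, peaks overlapping another list, chromosome X and each list left out. The gene tables at hand were of another build and were not used. Versions were pandas 2.3.3, NumPy 2.4.6 and SciPy 1.17.1 under Python 3.11.15, with figures from Matplotlib 3.10.9.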

Additional observations from a re-analysis of the deposited data

Results flagged for a closer look

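The number of split gaps differed between highland and lowland in opposite directions in the 2 breeds. TH had 138 fewer than TL (a difference of -138), whereas YH had 897 more than YL. The difference between the breeds was not tested, since each group has 1 list. The directions stayed the same in 5 of 8 alternatives, which were peaks of at least 20 tags (-663 in Tibetan and 1649 in Yorkshire pigs), a minimum gap of 25000 bp (-1363 and 2754), bases under at least 2 peaks (-482 and 1151), peaks that overlap another list (-449 and 1099) and chromosome X included (-202 and 926). In none of these 5 were the numbers of peaks made equal between lists. The autosomal peaks numbered 258861 in TH against 240851 in TL, and 263514 in YH against 305654 in YL. With equal numbers of peaks per list, both directions turned, to 6576 in TH against 5509 in TL and 6854 in YH against 7586 in YL. With peaks of at least 10-fold enrichment, highland had fewer than lowland in both breeds (9603 in TH against 10863 in TL, 11254 in YH against 11309 in YL). With a minimum gap of 100000 bp, highland had more in both (2337 in TH against 2311 in TL, 2454 in YH against 2061 in YL).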

How the results depend on the processing

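The number of deserts stayed within 1.5 times 7645 in 9 of 12 alternatives. It was 7832 to 7923 with 1 list left out, 8054 with equal numbers of peaks, 8167 with chromosome X, 8614 with only bases under at least 2 peaks, 8741 with only peaks that overlap another list and 8972 with at least 20 tags. It rose to 12783 with peaks of at least 10-fold enrichment and to 14973 with a minimum gap of 25000 bp, and fell to 1987 with 100000 bp. The number of split gaps with a minimum of 25000 bp was 14621 in TH, 15984 in TL, 15519 in YH and 12765 in YL, and with 100000 bp it was 2337 in TH, 2311 in TL, 2454 in YH and 2061 in YL. With at least 10-fold enrichment it was 9603 in TH, 10863 in TL, 11254 in YH and 11309 in YL, and with only peaks that overlap another list it was 3319 in YL. Other minima count other gaps by construction, and the cause of the other changes was not tested. The order of the lists by split gaps turned in 1 of 6 pairs by summed length, in 1 of 6 with at least 20 tags and in 5 of 6 with equal numbers. In alternatives for this order that were added after seeing the data, it turned in 4 of 6 with 10-fold enrichment, in 2 of 6 with 100000 bp, in 1 of 6 with peaks that overlap another list and in 0 with 25000 bp, with at least 2 peaks or with chromosome X. The summed length of the deserts ran from 336 Mb (100000 bp) to 1392 Mb (10-fold enrichment) over the 12 alternatives. The share of deserts in the ends was 9.23% for ends of 5% on each side, which make up 10% of the span. No paired analysis was possible because the peaks carry no animal names, and leaving out single animals was not run for the same reason.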

Other observations

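Chromosome X, which lies outside the rule, held 522 gaps of at least 50000 bp between peaks of the joined lists. They made up 53.6% of its span, with a median of 92878 bp and a longest gap of 1420747 bp. The number of split gaps there was 376 in TH, 440 in TL, 337 in YH and 308 in YL.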
